A study of Saccharomyces cerevisiae with 12 samples.

Results

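The 26S proteasome of Saccharomyces cerevisiae and its transcriptional activator were followed through the transcripts of 33 genes. They were chosen by name: PRE1 to PRE10, PUP1 to PUP3 and SCL1, RPT1 to RPT6, and RPN1 to RPN13. Of these, 14 encode the core particle, 18 encode the regulatory particle, and RPN4 encodes a transcription factor that belongs to neither. All 33 were among the 5769 genes with a value on all 12 arrays, and 0 of them lay in the 25% of genes with the lowest averages.

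The proteasome is the protease that degrades proteins marked with ubiquitin in the cytoplasm and nucleus. Its core particle is a barrel of stacked alpha and beta rings, whose catalytic beta subunits Pre3, Pup1 and Pre2 cut inside the closed chamber. The regulatory particle caps the barrel: its base holds a ring of Rpt ATPases that unfold and thread the substrate, and its lid carries the deubiquitinase Rpn11. In yeast, Rpn4 binds a shared element in the promoters of proteasome genes and raises their transcription, and is itself a very short-lived proteasome substrate, so that the protease and its activator form a feedback loop.

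The arrays compared strain Y55 (JT20150, genotype MAT-alpha MAL1 SUC1), called wild type here, with 3 derivatives of it, fhf1, fhf2 and fhf3, that were obtained by UV mutagenesis and ferment maltose fast. Each of the 4 strains was sampled in 3 separate cultures on day 2 of a stirred, semi-aerobic fermentation of 200 mL rich medium with 20% maltose at 22 °C. The mutated genes of fhf1, fhf2 and fhf3 are not named in the labels, each mutant stands for 1 UV-induced strain, and the probes were designed on another strain, S288C. One-colour arrays carried the dye Cy3 on cDNA made from polyadenylated RNA, and all 12 belonged to 1 chip format with 8 probes per gene.

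The deposited log2 values were not on a common scale, since the array medians ran from 12.09 to 12.98 and differed within strains too. The arrays were therefore quantile normalized, which gave each a median of 12.53 and lowered the median residual SD of a gene, that is, the spread between cultures of a strain, from 0.306 to 0.154 on the log2 scale. Every difference below is a log2 difference minus that of the median gene, tested two-sided with limma, and a gene is called at a Benjamini-Hochberg adjusted p under 0.05 over all genes of the comparison. The labelled mating type was set against marker genes. Against wild type, 5 of 7 MAT-a markers were called as lower in fhf3. Among them was MFA2, which encodes the a-factor pheromone (log2 difference -1.89, adjusted p under 0.05 in the limma fit). AGA2 and ASG7 were not called in fhf3, and all their fhf3 cultures read above those of wild type (AGA2 at 9.77, 9.87 and 9.62 against 9.27, 9.57 and 9.41). Of 4 MAT-alpha markers, 2 were higher and 1 was lower in fhf3. Markers were called in the other mutants too. In fhf1, MFA1 (-0.75) and the MAT-alpha marker SAG1 (-0.85) were lower and the MAT-a marker ASG7 (0.57) was higher. In fhf2, the MAT-a markers MFA1 (-0.72) and AGA2 (0.50) were lower and higher. In wild type MFA2 read 11.81, 11.72 and 11.50 and MFA1 12.15, 12.57 and 12.16. The MAT-a markers STE2, STE6, BAR1, AGA2 and ASG7 read lower there, from 9.27 to 10.90. Of the MAT-alpha markers, STE3, SAG1 and MF(ALPHA)1 read from 13.29 to 14.38 in wild type, and MF(ALPHA)2 from 11.39 to 12.11. The array scale does not show at which value a transcript is absent. The part of these marker differences in the results below was not tested.

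Proteasome transcripts differed little between the strains. Against wild type, limma called 1 of 33 genes in fhf1 (PRE3, lower), 0 in fhf2 and 2 in fhf3 (RPN6 and RPN13, higher). Without quantile normalization, which is the fit first planned, limma called 0 members in each mutant, so the member calls described here are those made after the arrays were put on a common scale. Over all genes, 16.0% were called in fhf1, 7.35% in fhf2 and 46.0% in fhf3, so in each comparison the members were called at a smaller share than genes at large. At an unadjusted p under 0.05, 3, 0 and 5 members were counted. In bulk RNA, a change in every cell and a change in a share of the cells cannot be told apart.

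After quantile normalization, the small differences were measured with enough precision to bound them. The deposited values had a median residual SD of 0.306 against 0.154, and intervals on that scale were not counted. In fhf1, fhf2 and fhf3 against wild type, the 95% interval of all 33 members lay within a 2-fold change, and that of 33, 32 and 31 members lay within 1.5-fold. Among all genes, 94.8%, 97% and 83.7% had intervals within 2-fold and 74%, 80.9% and 50.8% within 1.5-fold. The median absolute log2 difference of the members was 0.08, 0.06 and 0.07, against 0.17, 0.13 and 0.30 over all genes. The 3 comparisons share the wild-type arrays and are not independent of each other.

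**Figure D1:**
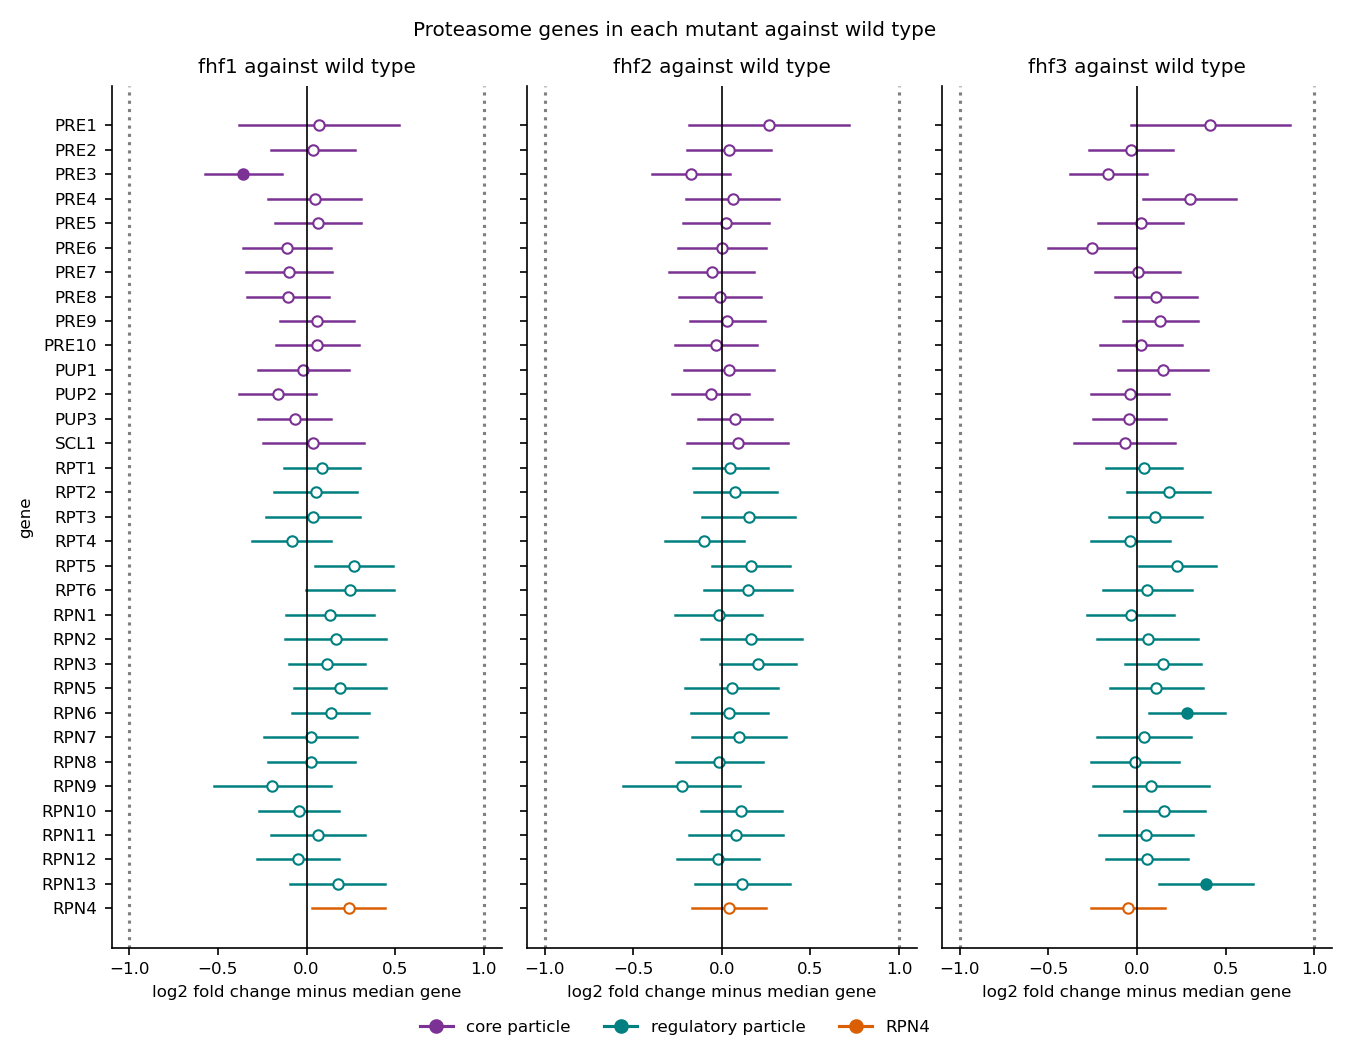
Log2 difference from wild type, minus that of the median gene, for each of the 33 genes in fhf1, fhf2 and fhf3; bars are 95% intervals from the limma fit, filled points passed the test, and dotted lines mark a 2-fold change. The intervals stay inside the 2-fold lines throughout, and 3 points are filled: PRE3 in fhf1, and RPN6 and RPN13 in fhf3.

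Across the 4 strains, the highest and the lowest strain mean of a member lay a median of 0.20 apart on the log2 scale, against 0.45 over all genes. The widest range belonged to PRE1, at 0.49, and 45.2% of all genes had a wider one. The members also varied little between cultures of a strain, with a median residual SD of 0.124 against 0.154 over all genes. The genes compared were not matched for signal: on single arrays the core particle median lay 0.90 to 1.24 above the array median. The part of signal level in these smaller spreads was not tested.

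**Figure D2:**
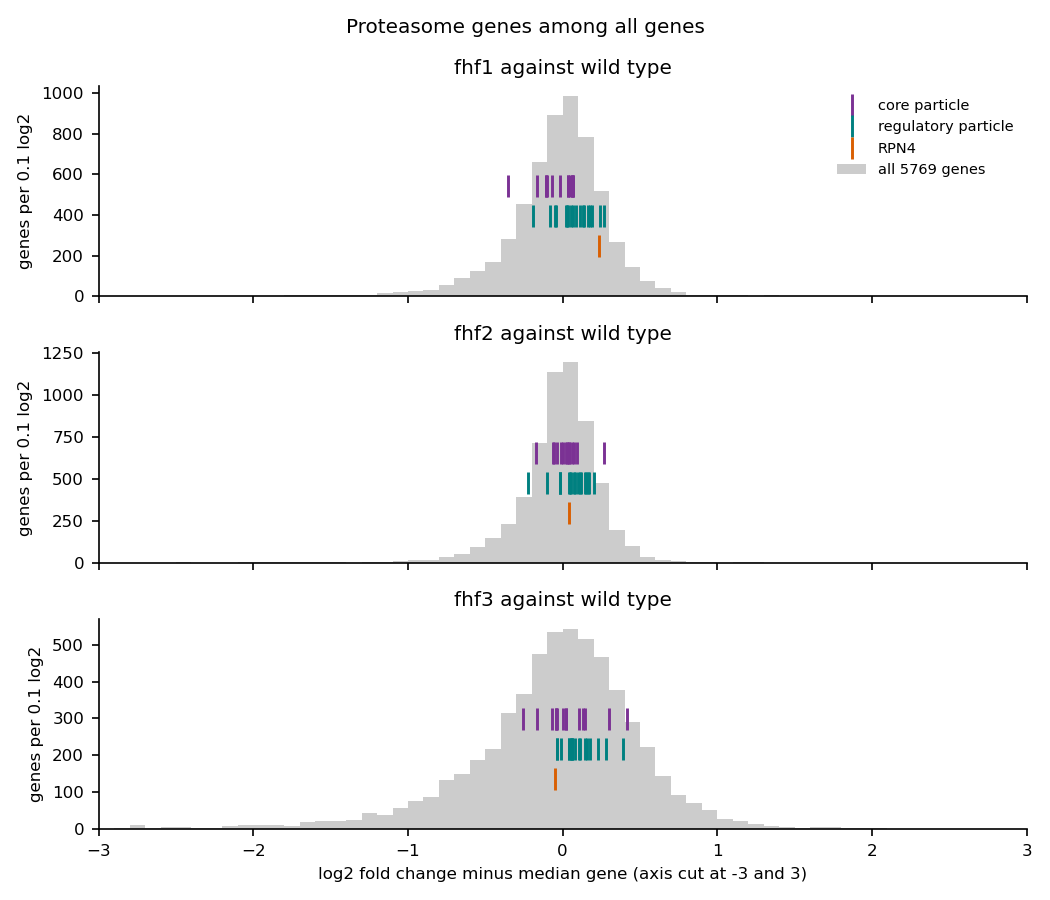
Histograms of the log2 difference from wild type, minus that of the median gene, over all 5769 genes (grey, genes per 0.1 log2 units), with ticks for core particle genes, regulatory particle genes and RPN4. The ticks lie between -0.36 and 0.41, near the middle of each histogram, and the histogram is widest in fhf3.

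RPN4 (YDL020C), the activator, read 13.88, 13.83 and 13.93 in the wild-type cultures and 14.08, 14.12 and 14.25 in those of fhf1. It read 13.83, 14.03 and 13.98 in fhf2, and 13.92, 13.92 and 13.86 in fhf3. All fhf1 cultures thus lay above all cultures of the other strains, and the other strains overlapped. The fhf1 difference from wild type was 0.24 (SE 0.097, 95% interval 0.03 to 0.44), a fold of 1.18, and it did not pass the test in the limma fit (adjusted p = 0.118). With array medians equalised in place of quantile normalization, the same difference was 0.36 and passed (limma, adjusted p = 0.0283), and it also passed with each gene's own variance (adjusted p = 0.0439).

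In fhf2 and fhf3, RPN4 differed from wild type by 0.04 (interval -0.17 to 0.25) and -0.05 (-0.26 to 0.16). The sign of the second turned with no centring and on the deposited values. RPN4 had the lowest residual SD of the 33 genes, 0.0742, so these intervals are among the narrowest. The difference between fhf3 and fhf1 was -0.25 (SE 0.097, interval -0.45 to -0.04), a fold of 0.842, and passed narrowly (limma, adjusted p = 0.0471). That call held in 2 of the 12 fits that each left out 1 array, without fhf1 replicate 1 (-0.29) and without wild type replicate 1 (-0.25), and was lost without each of the other 10, where the difference ran from -0.26 to -0.19.

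**Figure D3:**
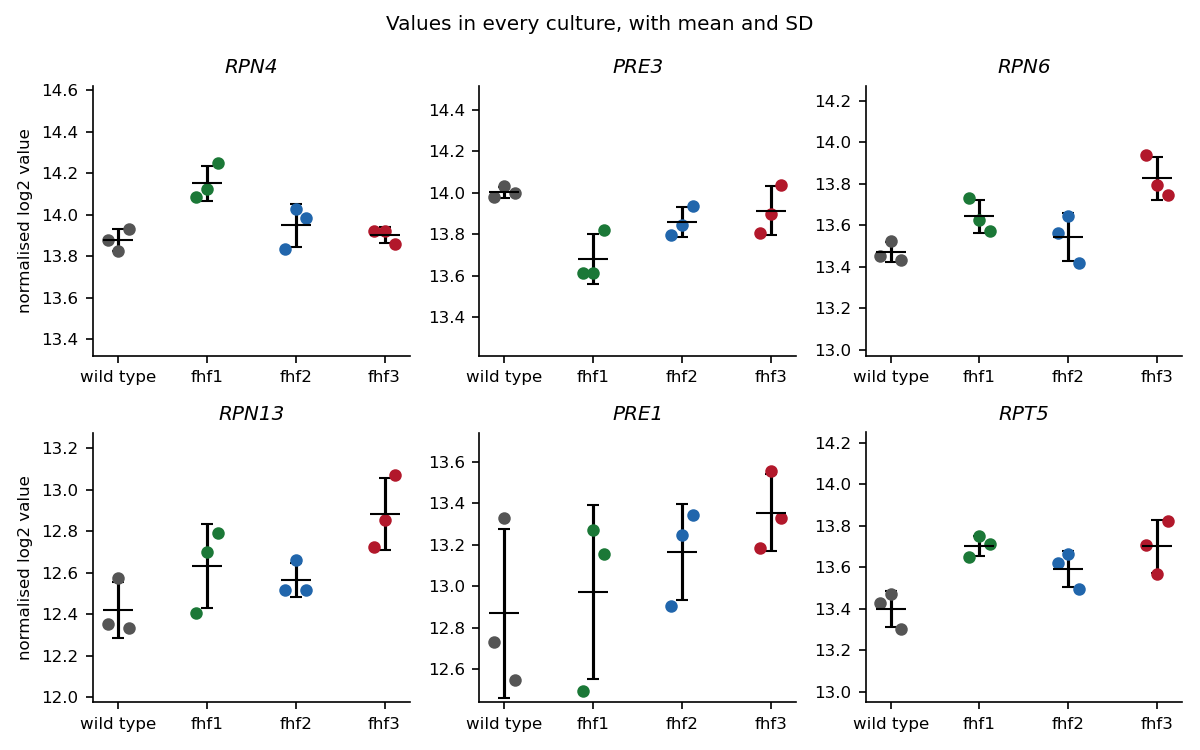
Normalised log2 value of RPN4, PRE3, RPN6, RPN13, PRE1 and RPT5 in each culture (points), with the mean and SD of the 3 cultures of a strain (bars). RPN4 is highest in the fhf1 cultures, PRE3 is lower in fhf1 than in wild type, RPN6 is highest in fhf3, and the PRE1 cultures of a strain scatter widely.

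Of the catalytic subunits, PRE3 (YJL001W), which provides the caspase-like activity, was lower in fhf1. It read 13.978, 14.031 and 13.998 in wild type and 13.61, 13.61 and 13.82 in fhf1. The fhf2 cultures read 13.80, 13.84 and 13.94, also below all of wild type, whereas the fhf3 cultures, at 13.80, 13.90 and 14.04, overlapped with it. The fhf1 difference was -0.36 (SE 0.103, interval -0.57 to -0.14), a fold of 0.781, with an adjusted p of 0.0264 in the limma fit. Those of fhf2 and fhf3, -0.17 (interval -0.39 to 0.04) and -0.16 (-0.38 to 0.06), did not pass.

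The PRE3 call in fhf1 was lost without fhf1 replicate 1 (-0.32), fhf1 replicate 2 (-0.31), wild type replicate 2 (-0.34) or wild type replicate 3 (-0.36), and held in the other 8 such fits. It was also lost with array medians equalised (-0.26, limma adjusted p = 0.123). The difference between fhf1 and fhf2, -0.18 (interval -0.40 to 0.03), did not pass, so that the change was not shown to differ between these mutants.

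PUP1 (YOR157C), of the trypsin-like activity, read 13.14, 13.50 and 13.28 in wild type, 13.36, 13.22 and 13.39 in fhf1, 13.43, 13.30 and 13.41 in fhf2, and 13.32, 13.67 and 13.58 in fhf3. The groups overlapped, and the differences from wild type were -0.02, 0.04 and 0.15, with the widest interval bound at 0.40. PRE2 (YPR103W), of the chymotrypsin-like activity, read 14.02, 13.93 and 13.84 in wild type, 13.87, 14.02 and 14.13 in fhf1, 13.99, 14.17 and 13.85 in fhf2, and 13.93, 14.06 and 13.93 in fhf3. Its differences from wild type, 0.04, 0.04 and -0.03, had intervals within -0.27 and 0.28. PRE3 was thus the catalytic subunit that passed the test, while the other two had intervals that reach above and below 0 in each mutant.

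The remaining beta ring genes, PRE1, PRE4, PRE7 and PUP3, encode non-catalytic subunits. PRE1 (YER012W) read 12.73, 13.33 and 12.55 in wild type, 12.49, 13.27 and 13.15 in fhf1, 12.90, 13.25 and 13.34 in fhf2, and 13.18, 13.56 and 13.33 in fhf3. This gene had the largest residual SD of the members, 0.328, and its groups overlapped throughout. Its differences from wild type, 0.07, 0.27 and 0.41, therefore came with an SE of 0.211 each, and none passed (limma, adjusted p = 0.124 in fhf3). Without wild type replicate 2, the highest of the wild-type cultures, the fhf3 difference was 0.66 and passed (limma, adjusted p = 0.0135). With replicate number as a block in the fit, the fhf3 difference stayed at 0.41 and passed (limma, adjusted p = 0.0298).

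PRE4 was higher in all fhf3 cultures than in all wild-type cultures, at 0.30 (interval 0.04 to 0.56), with an adjusted p of 0.0598 in the limma fit. It passed with no centring (0.37), with array medians equalised (0.36) and without the 25% of genes with the lowest averages (0.32). The PRE4 difference also passed without wild type replicate 2 (0.41), without fhf1 replicate 3 (0.30) and with replicate number as a block (0.30). PRE7 and PUP3 had differences from wild type between -0.10 and 0.08, none of which passed.

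The alpha ring forms the gate of the barrel and is encoded by SCL1, PRE8, PRE9, PRE6, PUP2, PRE5 and PRE10. None of these 7 genes was called in any of the 6 comparisons by limma, and at an unadjusted p under 0.05, 1 was counted in fhf3 against wild type (PRE6) and 1 in fhf3 against fhf1 (PRE8). The median alpha ring difference from wild type was 0.04, 0.00 and 0.02 in fhf1, fhf2 and fhf3. PRE6 (YOL038W) had the lowest difference from wild type of the core genes in fhf3, reading 13.01, 13.13 and 13.02 there against 13.25, 13.09 and 13.36 in wild type. Its fhf1 cultures read 13.36, 12.93 and 13.19 and its fhf2 cultures 13.28, 13.26 and 13.25. The fhf3 cultures lay below those of fhf2 and overlapped with those of wild type, and the difference from wild type was -0.25 (interval -0.50 to -0.01, limma adjusted p = 0.0849).

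Within the regulatory particle, the 6 ATPase genes of the base, RPT1 to RPT6, gave no call in any comparison, with medians of 0.07, 0.11 and 0.08 against wild type. RPT5 (YOR117W), one of the ATPases whose tails dock into pockets of the alpha ring, read 13.43, 13.47 and 13.30 in wild type. It read 13.65, 13.75 and 13.71 in fhf1, 13.62, 13.66 and 13.50 in fhf2, and 13.71, 13.57 and 13.82 in fhf3. RPT5 was the member whose wild-type cultures lay below all cultures of all 3 mutants. The differences were 0.27 (interval 0.05 to 0.49), 0.16 (-0.05 to 0.38) and 0.23 (0.01 to 0.45), and none passed (limma, adjusted p = 0.0919, 0.409 and 0.0813). The fhf3 difference passed with no centring (0.30) and with each gene's own variance (adjusted p = 0.0421).

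RPT4 (YOR259C) had the lowest differences of the base ATPases in all 3 mutants, -0.08, -0.10 and -0.04. It read 13.73, 13.63 and 13.45 in wild type, 13.53, 13.62 and 13.52 in fhf1, 13.67, 13.47 and 13.46 in fhf2, and 13.66, 13.68 and 13.58 in fhf3, with overlap between the groups. RPT6 was 0.24 higher in fhf1 (interval -0.01 to 0.49). RPN1 and RPN2, the large scaffold proteins of the base, differed from wild type by between -0.04 and 0.17, and neither passed.

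In the lid, RPN6 was called as higher in fhf3. RPN6 (YDL097C) read 13.45, 13.53 and 13.43 in wild type, 13.73, 13.63 and 13.57 in fhf1, 13.56, 13.65 and 13.42 in fhf2, and 13.94, 13.79 and 13.74 in fhf3. Each fhf3 culture lay above each culture of the other 3 strains. Against wild type the fhf3 difference was 0.28 (SE 0.102, interval 0.07 to 0.50), a fold of 1.22, with an adjusted p of 0.0331 in the limma fit. Against fhf2 it was 0.26 (interval 0.05 to 0.48, limma adjusted p = 0.0456), and against fhf1 it was 0.19 (-0.03 to 0.40) and did not pass. The call against wild type was lost without fhf3 replicate 1 (0.23), fhf3 replicate 2 (0.29), wild type replicate 1 (0.27) or wild type replicate 3 (0.26). The call against fhf2 was lost without fhf1 replicate 2 (0.26), fhf2 replicate 1 (0.28), fhf2 replicate 3 (0.20), fhf3 replicate 1 (0.21), fhf3 replicate 2 (0.27) or wild type replicate 3 (0.26).

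RPN3 (YER021W), another lid subunit, had the highest positive difference of the regulatory particle in fhf2, 0.21 (interval -0.01 to 0.42, limma adjusted p = 0.276). It read 13.21, 13.08 and 13.07 in wild type, 13.39, 13.27 and 13.16 in fhf1, 13.29, 13.40 and 13.38 in fhf2, and 13.26, 13.42 and 13.34 in fhf3. The fhf2 and fhf3 cultures lay above those of wild type, and those of fhf1 overlapped with them. RPN9 (YDR427W) was the lid gene with the most scatter: it read 13.36, 13.43 and 13.27 in wild type, 12.94, 13.28 and 13.37 in fhf1, 12.98, 13.55 and 12.94 in fhf2, and 13.51, 13.62 and 13.38 in fhf3. Its differences of -0.19, -0.23 and 0.08 from wild type had an SE of 0.155 each and did not pass. The other lid genes, RPN5, RPN7, RPN8, RPN11 and RPN12, had differences between -0.05 and 0.19, and RPN11, the deubiquitinase, stood at 0.06, 0.08 and 0.05.

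RPN13 (YLR421C) and RPN10 encode receptors for ubiquitin chains. RPN13 read 12.35, 12.58 and 12.33 in wild type, 12.41, 12.70 and 12.79 in fhf1, 12.52, 12.66 and 12.52 in fhf2, and 12.72, 12.85 and 13.07 in fhf3. The fhf3 cultures lay above those of wild type and fhf2 and overlapped with those of fhf1. The fhf3 difference from wild type was 0.39 (SE 0.126, interval 0.12 to 0.66), a fold of 1.31, with an adjusted p of 0.0194 in the limma fit, and it was the largest difference among the calls. It was lost without fhf3 replicate 3 (0.30), wild type replicate 1 (0.35) or wild type replicate 3 (0.35). RPN10 was higher in all fhf3 cultures than in those of each other strain, by 0.15 against wild type (interval -0.07 to 0.38), which did not pass.

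Core and regulatory particle were then set side by side. The median difference from wild type of the 14 core genes was 0.01, 0.03 and 0.01 in fhf1, fhf2 and fhf3, and that of the 18 regulatory genes was 0.07, 0.08 and 0.07, where the median of all genes is 0 by construction. Of the regulatory genes, 14, 13 and 15 lay above the median gene, and of the core genes 7, 9 and 8. On single arrays, the median difference of a particle from the wild-type mean varied within strains by a pooled SD of 0.0533 for the core and 0.0430 for the regulatory particle. The gap between the particles was given no test because the members were chosen by name with earlier results known.

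Relative to the wild-type mean, the regulatory median was above 0 in all 9 mutant cultures, from 0.017 in fhf1 replicate 3 to 0.152 in fhf2 replicate 2. All 9 were set against the same 3 wild-type cultures and are not independent of each other. The wild-type cultures themselves stood at -0.014, 0.024 and -0.046, so that fhf1 replicate 3 lay within their range. The core median ran from -0.10 in fhf1 replicate 1 to 0.08 in fhf3 replicate 3. Without quantile normalization the regulatory medians were 0.16, 0.11 and 0.14 and the core medians 0.07, 0.05 and 0.03, so the regulatory median was the higher of the pair on both scales.

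**Figure D4:**
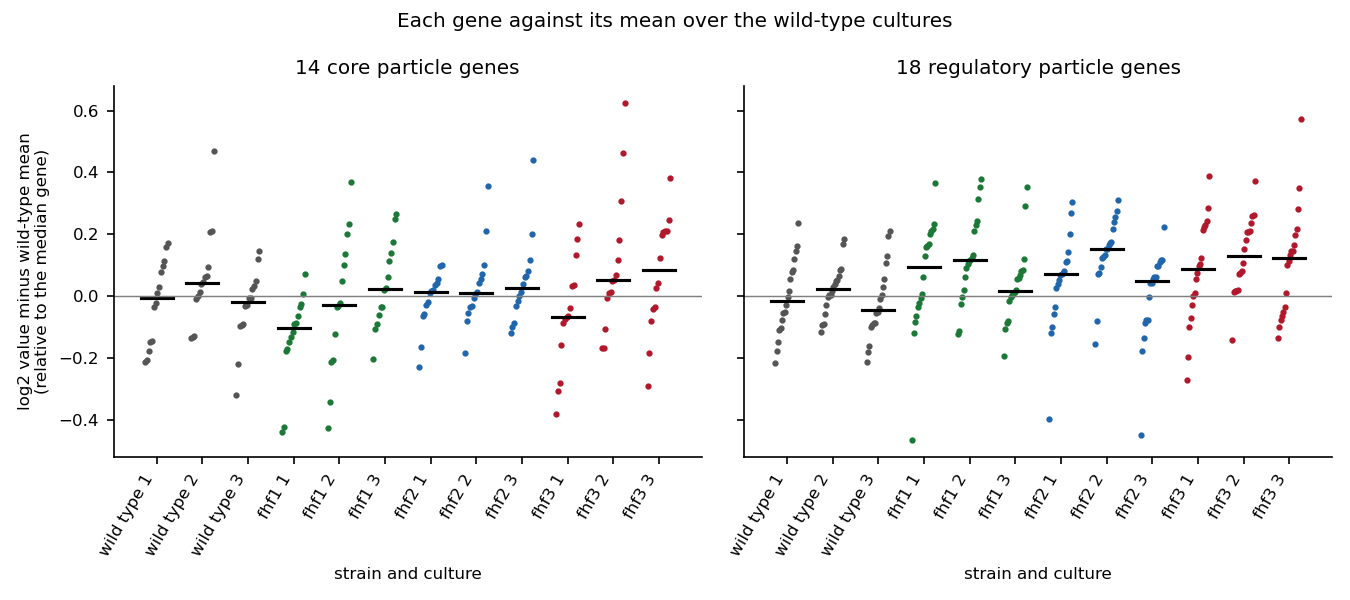
Log2 value of each core particle gene (left) and regulatory particle gene (right) minus its mean over the wild-type cultures, relative to the median gene, in each of the 12 cultures; bars are medians. The regulatory bars of the 9 mutant cultures lie above 0, and the core bars lie on both sides of it.

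Cultures whose values do not overlap give a second view of the same arrays. In fhf1, 4 members lay wholly above wild type (RPT1, RPT5, RPN4 and RPN6) and 1 wholly below (PRE3), where 29.3% of all genes had groups apart. In fhf2, 3 lay above (PUP3, RPT5 and RPN3) and 1 below (PRE3), where 25.5% of all genes did. In fhf3, 8 lay above (PRE4, PRE9, RPT3, RPT5, RPN3, RPN6, RPN10 and RPN13) and 0 below, beside 53.2% of all genes in either direction. In each comparison the share of the 33 members with groups apart was below that of all genes.

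Between the mutants, limma called 0 of 33 members in fhf1 against fhf2, with 0 also at an unadjusted p under 0.05, where 1.59% of all genes were called. It called 1 in fhf3 against fhf1 (RPN4, lower in fhf3), where 47.7% of all genes were called, and 1 in fhf3 against fhf2 (RPN6, higher in fhf3), where 46.1% were. After quantile normalization, the 95% intervals of all 33 members stayed within 2-fold in these comparisons too. The core median was -0.06 in fhf1 against fhf2, 0.13 in fhf3 against fhf1 and 0.06 in fhf3 against fhf2. The regulatory medians were 0.02, 0.06 and 0.05, so in fhf3 against fhf1 the core median was the higher one.

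In fhf3 against fhf1, the 7 beta ring genes had a median of 0.20, against 0.00 for the 7 alpha ring genes. Of the beta ring, 6 genes lay above the median gene and 1 below, and of the alpha ring 4 above and 3 below. The highest alpha ring gene was PRE8 (0.25, interval 0.02 to 0.48), which did not pass. The beta ring genes with the largest values were PRE1 (0.38, interval -0.07 to 0.83), PRE4 (0.29, 0.03 to 0.55) and PRE3 (0.23, 0.02 to 0.45). None of them passed (limma, adjusted p = 0.148, 0.0633 and 0.0728). With replicate number as a block, PRE1 and PRE4 passed (limma, adjusted p = 0.0409 and 0.0459). PRE4 also passed without the 25% of genes with the lowest averages (0.31), without fhf1 replicate 3 (0.39), and without wild type replicate 1 or replicate 2 (0.29 each). PRE3 passed without fhf1 replicate 3 (0.31), and also when the variances were not moderated between genes. Members with groups apart numbered 6 higher and 1 lower in fhf3 against fhf1, 6 higher and 1 lower in fhf3 against fhf2, and 1 higher and 3 lower in fhf1 against fhf2, beside 54.5%, 59.7% and 21.3% of all genes.

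The authors' deposited test asks another question. In the authors' deposited table the t statistic is 0 for every gene with an absolute log2 fold change under 1 and for no other gene, so that it tests for changes beyond 2-fold, and all 33 members were under that size in each mutant. In the authors' deposited table, the adjusted p was 1 for each of the 33 members in each mutant, so none was called, where 0.190%, 0.156% and 2.94% of its 5777 genes were. The log2 fold changes of the members in the authors' deposited table ran from -0.21 (PRE3) to 0.41 (RPN4) in fhf1, from -0.09 (RPN9) to 0.38 (PRE1) in fhf2, and from -0.53 (PRE6) to 0.13 (PRE1) in fhf3. These values are neither quantile normalized here nor centred: the median gene stood at 0.05, 0.10 and -0.28 on that scale. RPN6 and RPN13 stood at 0.05 and 0.08 in fhf3 on it. Quantile normalization and centring remove such a shift of the median gene, and whether it came from the arrays or from the strains was not tested. A limma fit of the deposited values with the median gene removed also called 0 members in each of the 6 comparisons, with 0 at an unadjusted p under 0.05.

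Genes that act around the proteasome were read from lists chosen by function, all of whose genes were measured. The counts of these lists stand beside the 16.0%, 7.35% and 46.0% of all genes called in fhf1, fhf2 and fhf3. Of 10 dedicated assembly chaperones, 1 was called in fhf1, 0 in fhf2 and 3 in fhf3, the last a smaller share than that of all genes. POC4, which encodes one partner of a chaperone pair for the alpha ring, read 10.71, 11.72 and 11.05 in wild type and 9.77, 10.35 and 10.43 in fhf1, so that all fhf1 cultures were lower. The POC4 difference in fhf1 was -1.01 (SE 0.212, limma adjusted p = 0.0042). In fhf2, POC4 stood at -0.52 and did not pass (limma, adjusted p = 0.178). Its mean in each strain lay below 11.73, the first quartile of gene averages. The partner gene IRC25 stood at -0.07 in fhf1 and did not pass.

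In fhf3, PBA1 (0.39) and ADD66 (0.86), which form the other alpha ring chaperone pair, were higher, and RPN14 (-0.60), a chaperone of the base, was lower. ADD66 read 12.06, 11.93 and 12.06 in fhf3 against 10.93, 11.33 and 10.99 in wild type, with no overlap. The list medians were -0.02, 0.07 and -0.02 in the 3 mutants.

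Among 9 activators and associated factors, limma called 0 in fhf1, with 3 at an unadjusted p under 0.05, and 0 in fhf2, with 1. In fhf3 it called 2 higher, CIC1 (0.63) and STS1 (0.55), and 3 lower, BLM10 (-0.70), FUB1 (-0.48) and HUL5 (-0.36). These 5 of 9 are close to the 46.0% of all genes called there. Blm10 caps the core particle as an alternative activator, Sts1 helps bring proteasomes into the nucleus, and Hul5 is a proteasome-bound ubiquitin ligase. BLM10 read 12.92, 12.90 and 12.75 in fhf3 and 13.64, 13.12 and 13.68 in wild type. SEM1 was counted in this list and not among the 18 regulatory particle genes. It stood at 0.01, 0.05 and 0.32 in fhf1, fhf2 and fhf3 and did not pass the limma test. Both directions occurred in this list, and its medians were -0.09, 0.00 and -0.12.

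Of 12 genes for ubiquitin and its activation and conjugation, 2 were called in fhf1, a share close to the 16.0% of all genes called there. Both encode ubiquitin fused to a ribosomal protein: RPL40B was lower by -0.77 and RPS31 by -0.55 on the log2 scale. RPL40A, another such fusion gene (-0.48, limma adjusted p = 0.0763), and the ubiquitin gene UBI4 (-0.004) did not pass in fhf1. RPS31 read 13.31, 13.74 and 13.73 in fhf1 against 14.05, 14.24 and 14.03 in wild type. In fhf2 limma called 0, with 3 at an unadjusted p under 0.05, and in fhf3 it called RAD6 (0.52) and UBC7 (0.47), which encode ubiquitin-conjugating enzymes, both higher.

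Of 9 ubiquitin ligases of protein quality control, DOA10 was higher in fhf1 (0.37) and LTN1 in fhf3 (0.92), and limma called 0 in fhf2, with 0 at an unadjusted p under 0.05. Ltn1 acts on chains stalled in the ribosome, and LTN1 read 12.80, 12.49 and 12.75 in fhf3 against 11.87, 11.53 and 11.65 in wild type. Of 7 genes of the Cdc48 unfoldase and its cofactors, OTU1 (-0.56) and CDC48 (-0.28) were lower in fhf3, and limma called 0 in fhf1 and 0 in fhf2, with 1 and 0 at an unadjusted p under 0.05. The 3 shuttle receptors RAD23, DSK2 and DDI1 gave 0 calls in each mutant, with 0, 0 and 1 at an unadjusted p under 0.05.

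Genes that control RPN4 were listed apart. Of the 4 activators of its transcription, HSF1, YAP1, PDR1 and PDR3, limma called PDR1 in fhf3 (0.39, higher) and none in fhf1 or fhf2, with 1 and 0 at an unadjusted p under 0.05. In fhf1, PDR1 stood at 0.38 (adjusted p = 0.0837), HSF1 at 0.21, PDR3 at 0.12 and YAP1 at 0.09, and none of them passed the limma test. In fhf3 against fhf1, where 47.7% of all genes were called, HSF1 (-0.31) and YAP1 (-0.34) were lower and passed, and PDR1 (0.05) and PDR3 (0.04) did not pass. Ubr2, Mub1 and Rad6 together mark Rpn4 with ubiquitin: limma called none of these 3 in fhf1 or fhf2, with 0 and 0 at an unadjusted p under 0.05, and in fhf3 RAD6 (0.52) was higher and MUB1 (-0.32) lower.

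On the deposited values without quantile normalization, limma called fewer of these list genes against wild type: POC4 in fhf1, and ADD66 and LTN1 in fhf3 (adjusted p = 0.0031, 0.0312 and 0.0137), and 0 in fhf2.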

How the data were processed

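Transcripts were measured on 12 one-colour NimbleGen arrays, 3 cultures for each of 4 strains. The authors deposited log2 values per gene and array, and a table of log2 fold changes, p-values and adjusted p-values per mutant. Per the submitters' processing notes limma was used; for the background correction, normalization and probe summary, nothing is given in the sources used here. The deposited fold changes equal the differences of the deposited array means. Labels also mention hybridisation in triplicate, and whether repeats were averaged is not stated. No depth exists for arrays, so the number of arrays limits the precision.

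The 103 rows without values were left out. The planned fit took the deposited values as already normalized; because array medians differed, quantile normalization was put first and the deposited values became the alternative, a choice made from the array medians after seeing the files, with an earlier account's calls on the deposited scale known, and kept once member calls on both scales were seen. The fit as planned calls 0 members, and all 5 member calls depend on putting the arrays on a common scale. With array medians equalised in place of quantile normalization, the RPN6 and RPN13 calls in fhf3 against wild type held. The RPN4 call in fhf3 against fhf1 and the RPN6 call in fhf3 against fhf2 held too, and the PRE3 call in fhf1 was lost. R 4.3.3 and limma 3.58.1 (lmFit, eBayes) fitted all 12 arrays with strain as the only term. The steps were tested on simulated data with independent noise and with changes in few genes of fhf1 alone. That simulation does not cover broad change, as in fhf3, or deviations shared between arrays. Members were matched by systematic name (33 of 33) and named by a RefSeq R64 table.

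Members, lists and rules were chosen with earlier results of these data known. Values are given in full for RPN4, the catalytic subunits, the extreme core and regulatory members of each mutant and every member called, and for companion genes that were called (up to 4 per list and mutant). Outside that rule, other members, HUL5 and uncalled companion genes were named after their values were seen. Replicate numbers were not used in the fit described above, and the labels do not say whether they pair the arrays. Of 18 same-numbered pairs of arrays, 11 had deviations correlated above 0.1 (lowest -0.264). Of 36 best matches between strains, 22 had the same number, so pairing is neither shown nor excluded. Dim genes, centring, variance, samples in the fit, the replicate block and single arrays were varied.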

Additional observations from a re-analysis of the deposited data

Results flagged for a closer look

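Both calls between mutants are differences between strains under the same test and deserve a second look. RPN4 was lower in fhf3 than in fhf1 by a log2 difference of -0.247 (limma, adjusted p = 0.0471). All 3 cultures of each strain were apart, as they were for 54.5% of all genes in that comparison. RPN6 was higher in fhf3 than in fhf2 by 0.263 (limma, adjusted p = 0.0456), again with all cultures apart, as for 59.7% of all genes there. Neither exceeds a 1.5-fold change at the estimate. Of the 12 fits that left out 1 array, 10 lost the RPN4 call and 6 lost the RPN6 call, as given above. The cause of either difference was not tested.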

How the results depend on the processing

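The 5 member calls are all near the threshold. On the deposited values limma called 0 members in each of the 6 comparisons, and the authors' deposited test, which is for changes beyond 2-fold, called 0 in each mutant. With each gene's own variance, 2 members were called in fhf1 against wild type (PRE3 and RPN4) and 2 in fhf3 against fhf1 (PRE3 and RPN4). In fits of only the arrays of the 2 strains compared, the counts were 0 in fhf1 and 1 in fhf3 against wild type, 0 in fhf3 against fhf1 and 3 in fhf3 against fhf2. With no centring, 4 were called in fhf3 against wild type (PRE4, RPT5, RPN6 and RPN13), and without the 25% of genes with the lowest averages, 2 in fhf3 against fhf2 (RPN6 and RPN13).

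The replicate block gave 4 calls in fhf3 against wild type (PRE1, PRE4, RPN6 and RPN13), 2 in fhf3 against fhf1 (PRE1 and PRE4, with RPN4 at -0.247 no longer passing, adjusted p = 0.0521) and 2 in fhf3 against fhf2 (RPN6 and RPN13). The block changed no other member count, and the best match in every other strain had the same number for 4 of 12 arrays. Of single best matches, 22 of 36 had the same number, and the pairs of arrays numbered 1 correlated at 0.169 to 0.492, so the numbers may hold some shared structure that the labels do not describe.

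Leaving out 1 array at a time, the counts ran from 0 to 1 in fhf1 and from 0 to 4 in fhf3 against wild type, and from 0 to 2 in fhf3 against fhf1 and in fhf3 against fhf2. They stayed at 0 in fhf2 against wild type and in fhf1 against fhf2. For fhf3 against wild type, the count was 0 without wild type replicate 1 or wild type replicate 3, 4 without wild type replicate 2, and 1 without any one of the fhf3 arrays.

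RPN4 in fhf1 against wild type passed at 0.359 with array medians equalised and at 0.237 with each gene's own variance. In fhf3 against wild type its sign turned, to 0.022 with no centring and 0.0199 both on the deposited values and with array medians equalised. In fhf2 it ran from -0.00167, without fhf2 replicate 2, to 0.0957. RPN4 in fhf3 against fhf1 lost its call without the dim genes (-0.229), on the deposited values (-0.287) and in the fit of 2 strains (-0.247), and leaving out 1 array it ran from -0.289 to -0.193. The regulatory median rose to 0.156 in fhf1 on the deposited values and with array medians equalised, and in fhf3 to 0.141 with no centring and 0.142 on both of those scales. The core median rose to 0.0685 in fhf1 on both of those scales and to 0.0842 in fhf3 with no centring. Leaving out 1 array, the core median ran from -0.0551 (without fhf1 replicate 3) to 0.0348 in fhf1 against wild type and from -0.113 (without fhf1 replicate 3) to 0.0120 (without fhf1 replicate 1) in fhf1 against fhf2, so its sign there rests on single arrays, and the regulatory median in fhf3 ran from 0.0640 to 0.126. The causes were not tested.

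Over all genes, limma called 922, 424 and 2655 genes in fhf1, fhf2 and fhf3 against wild type, of which 334, 119 and 1234 were higher. On the deposited values it called 166, 68 and 921, of which 30, 4 and 253 were higher. For fhf1 against fhf2, fhf3 against fhf1 and fhf3 against fhf2, the counts were 92, 2750 and 2660, and 15, 1137 and 977 on the deposited values. With no centring, 446 of 960 calls in fhf1 were higher, and with array medians equalised, 36 of 98 in fhf1 against fhf2, where 44 of 92 were before. In fhf1 the fit of 2 strains called 507. Without the dim genes and with own variances, 280 and 229 were called in fhf2 against wild type, and 54 and 53 in fhf1 against fhf2. The number of arrays, 3 a strain, limits the precision.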
